A study of Mus musculus with 12 samples.

Results

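The genes described here carry thyroid hormone through brain tissue, activate or inactivate it, bind it, or answer to it in the cortex. They were taken by symbol and number 9 of the 55401 gene identifiers in the count table: the transporter Slco1c1, the deiodinases Dio2 and Dio3, the receptors Thra and Thrb, the cytosolic hormone-binding protein Crym and the cortical target genes Klf9, Hr and Nrgn. Each symbol matched 1 identifier. The choice was made by symbol and not from measured values, but with earlier results of these data known. The libraries hold poly(A) RNA of prefrontal cortex from C57BL/6J males at 14 weeks of age. The dorsomedial part had been injected on both sides 4 weeks earlier with an AAV (adeno-associated virus, a vector for gene delivery). All 12 libraries come from injected mice, 4 in each of 3 groups. The control group received AAV with green fluorescent protein (GFP) under the CAG promoter, which is active in most cell types. The overexpression group received AAV in which CAG drives GFP joined through a P2A peptide to Ttr, the gene for transthyretin. The knockdown group received AAV with a short hairpin RNA against Ttr under the U6 promoter, plus GFP under CAG. The control vector came from a repository and both Ttr vectors from a custom supplier, so the source of the vector and the group cannot be told apart. The labels do not say that each library came from its own mouse, and the spread that the p-values rest on may be partly technical.

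Thyroid hormone is secreted mostly as thyroxine (T4) and acts mostly as triiodothyronine (T3). In the brain, the Slco1c1 product takes up T4 at the blood-brain barrier and into astrocytes. Astrocytes convert it to T3 with the Dio2 enzyme, while the Dio3 enzyme, found in neurons, inactivates both forms. T3 acts on nuclear receptors encoded by Thra and Thrb, which sit on DNA with retinoid X receptors and either recruit corepressors or, with hormone bound, coactivators. Transthyretin binds T4 in blood and cerebrospinal fluid, which is the link between the vectors and these genes. The series title places the work in vitamin B12 and stress resilience and does not name thyroid hormone.

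Total counts ranged from 19879629 to 37166146 per library. Ttr had 314 ± 231 CPM (counts scaled to library size with TMM factors; mean ± SD, n = 4) in the overexpression group, 2.59 ± 3.94 in the control group and 0.873 ± 0.718 in the knockdown group. Overexpression against control passed the test for Ttr (log2 fold change 7.01 ± 0.81 SE, edgeR adjusted p = 0.0168). This call was lost on only the 2 groups compared (edgeR adjusted p = 0.264). It was also lost without control replicate 1, 3 or 4 or overexpression replicate 3 (0.143, 0.0922, 0.162 and 0.0506). The log2 fold change in these fits was 6.58 to 7.08. Knockdown against control did not pass for Ttr (-1.41 ± 1.16 SE, edgeR adjusted p = 0.936). The control mean rests on control replicate 2 at 8.5 CPM, the other control libraries having 0.58, 0.491 and 0.781, inside the 0.146 to 1.86 CPM of the knockdown libraries. Without control replicate 2 the difference turned to 0.60 (edgeR adjusted p = 0.999), so the counts do not check the knockdown label. Cortical excitatory neuron markers summed to 4848 to 6399 CPM in every library. Markers of striatal projection neurons, cells that cortex lacks, ranged from 148 to 656 CPM in the control group, 130.4 to 785 in the overexpression group and 117 to 723 in the knockdown group. Oligodendrocyte markers ranged from 2058 to 4885, 1976 to 2982 and 1302 to 2858 CPM in the same order, with the highest score in control replicate 2 and the lowest in knockdown replicate 4. Summed mural and meningeal markers were 194 to 286 CPM with overexpression, 142 to 184 in control and 164 to 187 in knockdown libraries. The overexpression range overlapped neither of the others. Taken singly, 2.72% of all genes did not overlap in overexpression against control and 2.37% in overexpression against knockdown. All 10 mural and meningeal markers had higher means with overexpression than in control libraries, and none passed the edgeR test (8 at an unadjusted p under 0.05). Markers of the choroid plexus, the main site of Ttr expression, summed to 4.18 to 5.21 CPM in control, 4.25 to 13.8 in overexpression and 4.76 to 9.56 in knockdown libraries. The 4 that could be tested had higher means in both Ttr vector groups (median log2 1.379 and 0.546, 0 called), and Folr1 and Otx2 were too low to test.

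The 9 genes spread over 7 chromosomes in the GENCODE annotation of GRCm38, and all are protein coding. Slco1c1 lies on chromosome 6 (141524368 to 141570177, plus strand), Crym on chromosome 7 (120186380 to 120202111, minus strand) and Nrgn on chromosome 9 (37544492 to 37552904, minus strand). Thra lies on chromosome 11 (98740638 to 98769006, plus strand) and Klf9 on chromosome 19 (23141226 to 23168134, plus strand). Chromosome 12 holds Dio2 (90724552 to 90738438, minus strand) and Dio3 (110279068 to 110281097, plus strand), and chromosome 14 holds Thrb (17660261 to 18038090, plus strand) and Hr (70552212 to 70573548, plus strand). Promoter windows of 250 bases before to 50 bases after a RefSeq start (GRCm38.p6) were at hand for 6 of the 9 genes, as 7 windows, of which Thrb has 2. They were searched on both strands for AGGTCA, the core letters bound by thyroid hormone receptors and several other nuclear receptors, and for TGACGTCA, the cAMP response element. AGGTCA occurs in 16.3% of all 32851 windows in the table and TGACGTCA in 1.79%. A match describes letters and is no evidence of binding. The 2 windows that held a match are shown, with the match in capitals and both read 5′ to 3′ on the gene's strand.
Dio2 at chr12:90738989-90739288, minus strand, TGACGTCA starting 95 bases before the RefSeq start: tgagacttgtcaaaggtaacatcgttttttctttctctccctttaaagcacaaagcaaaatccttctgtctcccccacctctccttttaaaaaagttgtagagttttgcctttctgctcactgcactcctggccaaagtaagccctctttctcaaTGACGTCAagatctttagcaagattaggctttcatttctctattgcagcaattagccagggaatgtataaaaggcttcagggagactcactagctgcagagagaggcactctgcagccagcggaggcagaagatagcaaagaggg
Thrb at chr14:17660710-17661009, plus strand, AGGTCA starting 184 bases before the RefSeq start: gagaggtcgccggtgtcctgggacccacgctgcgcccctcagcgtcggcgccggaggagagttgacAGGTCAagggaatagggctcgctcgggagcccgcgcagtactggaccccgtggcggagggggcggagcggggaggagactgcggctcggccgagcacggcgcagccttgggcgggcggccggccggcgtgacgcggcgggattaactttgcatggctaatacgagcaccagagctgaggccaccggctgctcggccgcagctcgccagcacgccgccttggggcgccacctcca
The Thrb window shown lies wholly inside the GENCODE gene, downstream of its start at 17660261. The RefSeq start of Dio2 lies 600 bases upstream of the GENCODE start. Dio2 is known to be induced through cAMP, and these letters are the reason its window is shown beside its values below. The other Thrb window and the windows of Slco1c1, Dio3, Klf9 and Nrgn held neither run of letters.

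Per transcript length, the 9 genes covered a wide span of levels in this cortex. In deposited TPM, which is scaled by transcript length and library total, means ± SD over the 12 libraries were highest for Nrgn, a calmodulin-binding protein of excitatory neuron dendrites, at 2054 ± 308, above 99.9% of the genes tested. Thra followed at 857 ± 75.8 TPM and Crym, which binds T3 in the cytosol, at 203 ± 39.4. Klf9, a zinc-finger transcription factor induced by T3 and by glucocorticoids, had 143 ± 11.4 TPM. Slco1c1, Thrb and Dio2 came next at nearly equal TPM, with 40.1 ± 4.08, 38.2 ± 4.73 and 37.5 ± 5.09. In CPM, which is not scaled by length, their means were 50.4, 93.9 and 86.4, and Crym (111) lay below Klf9 (255). The order given here therefore depends on the transcript lengths behind the TPM. Hr, which encodes the corepressor hairless, had 13.1 ± 3.31 TPM and Dio3 had 2.69 ± 1.12, above 21.6% of tested genes. Neighbours in this order were separated by more than the range of the libraries, except that the ranges of Crym and Klf9 overlapped, as did those of Slco1c1 and Thrb and of Thrb and Dio2.

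**Figure D1:**
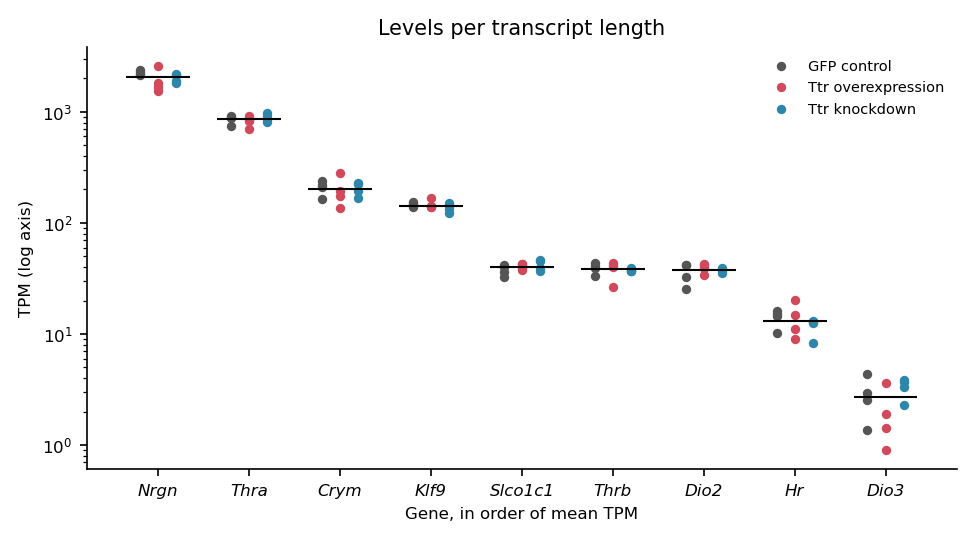
TPM of each gene in the 12 libraries (log axis), in order of the mean, with 1 point per library coloured by group and a black line at the mean over all 12. Nrgn lies highest at a mean of 2054 TPM and Dio3 lowest at 2.69, while Slco1c1, Thrb and Dio2 lie together near 40.1 to 37.5.

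Thra mRNA exceeded Thrb mRNA by a similar ratio in each group. The Thra to Thrb ratio of TPM was 22.3 ± 3.93 in control, 22.5 ± 6.36 in overexpression and 23.7 ± 1.31 in knockdown libraries (SD, n = 4 each). Its size depends on the transcript lengths used: mean CPM over the 12 libraries was 831 for Thra and 93.9 for Thrb. Gene counts do not separate the Thra products, of which the α2 variant does not bind T3. The transcripts Thra-201 and Thra-203 share 263 exon bases (chromosome 11, 98768157 to 98768419) with Nr1d1, a clock repressor on the opposite strand that had 1843 to 3631 counts per library. The kit was directional, but the strand setting of the counting is not given in the sources used here, so reads there may be assigned to either gene. Nr1d1 differed by -0.009 ± 0.070 (log2, SE) between overexpression and control and by 0.047 ± 0.071 between knockdown and control, with edgeR adjusted p-values of 0.992 and 0.973. Dio2 shares 100 exon bases (chromosome 12, 90738201 to 90738300) with Gm26512 on the opposite strand, which had only 32 to 75 counts per library.

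None of the 9 genes passed the test in any of the 3 comparisons. All 9 passed the filter on low counts, and edgeR called 0 of 9 at an adjusted p under 0.05 in each comparison, with 0 of 9 at an unadjusted p under 0.05. DESeq2 also called 0 of 9 in each comparison, with 1 gene at an unadjusted p under 0.05 in overexpression against control (Nrgn), 0 in knockdown against control and 1 in overexpression against knockdown (Dio3). Over all 18289 genes tested, edgeR called 0.00547% in each of the 3 comparisons, and 6.26%, 5.68% and 5.1% had an unadjusted p under 0.05 in overexpression against control, knockdown against control and overexpression against knockdown. No gene of the 9 had CPM ranges that did not overlap between 2 groups, against 2.72%, 4.11% and 2.37% of all genes in the same order. With so few calls among all genes, the absence of calls among 9 says little by itself, and the intervals of the differences below carry the information. The comparisons share libraries and are therefore not independent of one another.

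**Figure D2:**
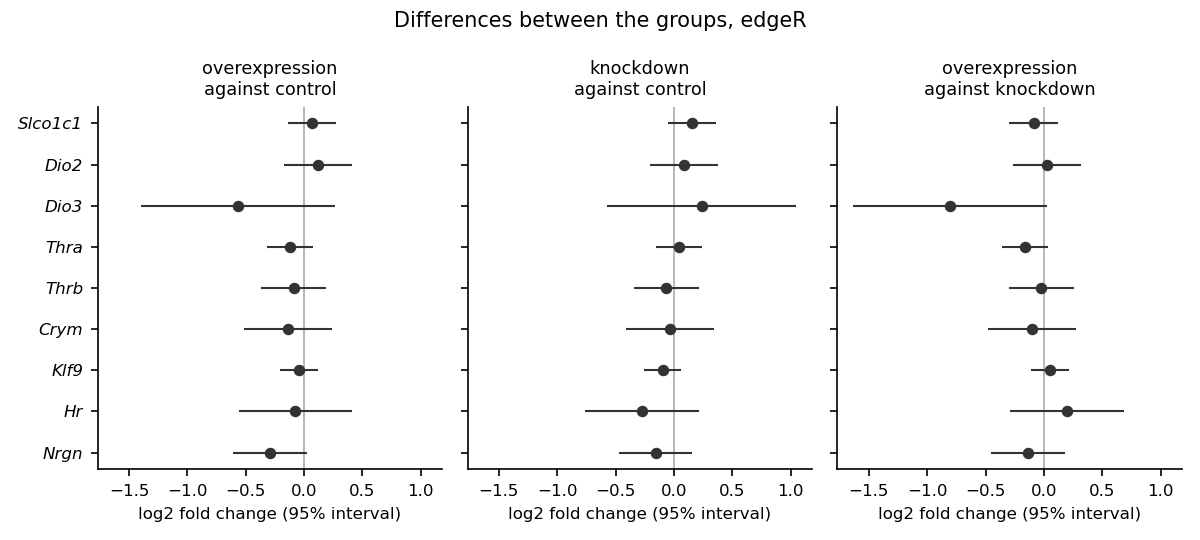
Log2 fold change of each gene in the 3 comparisons, with the 95% interval from edgeR as a bar and 0 as a grey line. Every interval includes 0; Dio3 has the widest (-1.40 to 0.27 in overexpression against control) and Klf9 the narrowest (-0.21 to 0.12).

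Overexpression against control gave lower means for 7 of the 9 genes and higher means for 2, with a median log2 fold change of -0.089. The median over all genes tested was 0.0038 and 51.4% of them were above 0. Knockdown against control gave 4 higher and 5 lower, with a median of -0.038 (all genes 0.0047, 51.8% above 0). Overexpression against knockdown gave 3 higher and 6 lower, with a median of -0.089 (all genes 0.0002, 50.1% above 0).

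Slco1c1, the T4 transporter, had 51.4, 42.3, 52.2 and 45.2 CPM in control replicates 1 to 4, 47.2, 47.8, 53.3 and 52.1 in overexpression replicates and 47.0, 56.1, 47.7 and 62.6 in knockdown replicates. The groups overlapped, although knockdown replicates 2 and 4 and overexpression replicate 3 were above every control library. The log2 fold change was 0.067 ± 0.096 (SE) for overexpression and 0.16 ± 0.10 for knockdown against control (edgeR adjusted p = 0.935 and 0.908). The 95% intervals, as ratios, ran from 0.908 to 1.21 and from 0.965 to 1.29. In tissue such as this, fewer cells of a type and less RNA per cell cannot be told apart, and Slco1c1 is a gene of vessel and astrocyte cells. Endothelial markers moved beside it: all 8 had higher means in both Ttr vector groups, summing to 246 to 268 CPM in control, 259 to 327 in overexpression and 269 to 335 in knockdown libraries. Astrocyte markers had higher means in 7 of 8 with overexpression and 6 of 8 with knockdown (median log2 0.152 and 0.16, 0 called, 0 and 2 at an unadjusted p under 0.05), and the part of both lists in the Slco1c1 values was not tested.

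Dio2, which makes T3, had 97.0, 60.3, 96.7 and 75.1 CPM in control replicates 1 to 4, 74.9, 99.6, 89.9 and 93.2 in overexpression replicates and 87.8, 87.1, 79.3 and 96.4 in knockdown replicates. Control replicate 2 was the lowest of all 12 libraries, and the knockdown values lay inside the range of the control values. edgeR gave a log2 fold change against control of 0.12 ± 0.14 (SE) for overexpression and 0.088 ± 0.135 for knockdown (edgeR adjusted p = 0.917 and 0.975), with intervals of 0.887 to 1.33 and 0.868 to 1.30 as ratios. Without control replicate 2, these values were -0.006 and -0.035. Mean Dio2 levels were 82.3 ± 17.9 CPM in control, 89.4 ± 10.4 in overexpression and 87.6 ± 6.99 in knockdown libraries (SD, n = 4).

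Dio3, which inactivates T3 and T4, was measured least precisely. It had 3.56, 1.15, 2.05 and 2.39 CPM in control replicates 1 to 4, 2.78, 0.734, 1.15 and 1.47 in overexpression replicates and 3.06, 1.82, 2.62 and 3.32 in knockdown replicates, from 24 to 92 counts per library. The means put overexpression lowest, and its replicate 1 lay among the higher values of the other groups. On the log2 scale, the difference was -0.57 ± 0.39 (SE) for overexpression against control, 0.24 ± 0.38 for knockdown against control and -0.80 ± 0.39 for overexpression against knockdown (edgeR adjusted p = 0.859, 0.977 and 0.974; unadjusted 0.166, 0.541 and 0.057). Leaving out overexpression replicate 1 moved overexpression against control to -1.06 and overexpression against knockdown to -1.29, with the edgeR adjusted p at 0.633 and 0.91. The interval for overexpression against control, 0.378 to 1.20 as a ratio, does not exclude a decrease to 0.5 of the control level. The Dio2 to Dio3 ratio of TPM was 13.8 ± 4.25 in control, 26.6 ± 15.8 in overexpression and 11.9 ± 3.25 in knockdown libraries (SD, n = 4), and the overexpression libraries ran from 9.42 to 47.4 around the 9.51 to 18.3 of the control libraries. Dio3os, the antisense RNA beside Dio3, had 3 to 14 counts per library and shares no exon bases with it.

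Thra had 873, 895, 725 and 889 CPM in control replicates 1 to 4, 850.3, 686, 790.3 and 784 in overexpression replicates and 953, 775, 808 and 941 in knockdown replicates. All 4 overexpression values lay below the 3 highest control values, and control replicate 3 lay among them. The log2 fold change was -0.12 ± 0.09 (SE) for overexpression against control, 0.040 ± 0.091 for knockdown against control and -0.16 ± 0.09 for overexpression against knockdown (edgeR adjusted p = 0.86, 0.984 and 0.974). The intervals against control were 0.802 to 1.05 for overexpression and 0.897 to 1.18 for knockdown, as ratios.

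Thrb had 102, 85.1, 107 and 95.8 CPM in control replicates 1 to 4, 97.9, 99.0, 106 and 62.8 in overexpression replicates and 97.1, 88.9, 88.7 and 96.9 in knockdown replicates. Overexpression replicate 4 was the lowest of all 12 libraries, and the other 3 overexpression values lay among the control values. edgeR gave a log2 fold change against control of -0.089 ± 0.129 (SE) for overexpression and -0.067 ± 0.129 for knockdown (edgeR adjusted p = 0.937 and 0.983), and without overexpression replicate 4 overexpression against control was 0.042. That library also had the highest striatal (1.622), microglia (0.577) and choroid plexus (1.303) scores of all 12 and the lowest excitatory neuron score (-0.271). Striatal scores were 1.548 in knockdown replicate 3 and 1.371 in control replicate 4, where Thrb had 88.7 and 95.8 CPM. The part of tissue make-up in the Thrb values was not tested.

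Crym had 116, 125, 89.1 and 130.2 CPM in control replicates 1 to 4, 147, 75.1, 94.7 and 101 in overexpression replicates and 124, 104, 122 and 98.2 in knockdown replicates. The overexpression group held both the highest and the lowest library. On the log2 scale, the difference against control was -0.14 ± 0.17 (SE) for overexpression and -0.038 ± 0.174 for knockdown (edgeR adjusted p = 0.927 and 0.991), and without overexpression replicate 1 overexpression against control was -0.36.

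Klf9, a direct T3 target, varied least of the 9. It had 252, 269, 272 and 262 CPM in control replicates 1 to 4, 235, 300.3, 242 and 244 in overexpression replicates and 241, 268, 244 and 232 in knockdown replicates, a coefficient of variation of 7.74% over all 12 libraries. Of the 4 libraries in each Ttr vector group, 3 were below every control library, and replicate 2 was not. The log2 fold change against control was -0.046 ± 0.075 (SE) for overexpression and -0.098 ± 0.075 for knockdown (edgeR adjusted p = 0.947 and 0.934), with intervals of 0.866 to 1.08 and 0.835 to 1.05 as ratios. Klf9 also answers to glucocorticoids. Of 6 glucocorticoid-induced genes, 6 were higher in overexpression against control (median log2 0.093). In knockdown against control, 4 were higher and 2 lower (median 0.12), and 0 of 6 passed in either comparison. Per1 had 0.64 ± 0.13 (edgeR adjusted p = 0.234) in knockdown and Sult1a1 0.51 ± 0.22 (0.79) in overexpression against control. The part of glucocorticoids in the Klf9 values was not tested.

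Hr had 23.1, 33.6, 35.8 and 33.4 CPM in control replicates 1 to 4, 19.0, 44.7, 24.1 and 31.7 in overexpression replicates and 28.1, 28.9, 27.5 and 19.6 in knockdown replicates. Its highest and lowest libraries were both in the overexpression group, and the knockdown values lay below 3 of the 4 control values. edgeR gave a log2 fold change against control of -0.078 ± 0.224 (SE) for overexpression and -0.27 ± 0.23 for knockdown (edgeR adjusted p = 0.968 and 0.937), with intervals of 0.677 to 1.33 and 0.59 to 1.16 as ratios.

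Nrgn came nearest to a difference from control. It had 1257, 1311, 1303 and 1368 CPM in control replicates 1 to 4, 908, 1484, 1031 and 853 in overexpression replicates and 1281, 1030.5, 1068 and 1319 in knockdown replicates. The control values lay close together (1309.7 ± 45.6, SD, n = 4), and 3 overexpression libraries lay below all of them while overexpression replicate 2 was the highest of all 12. On the log2 scale, the difference was -0.29 ± 0.145 (SE) for overexpression against control (edgeR adjusted p = 0.819, unadjusted 0.0648) and -0.16 ± 0.145 for knockdown against control (adjusted 0.945). Without overexpression replicate 2, overexpression against control was -0.49 with an edgeR adjusted p of 0.0989, the smallest of any gene of the set under any setting tried. Choroid plexus markers had higher means in both Ttr vector groups, and over the 12 libraries Nrgn ran against their score (r = -0.844). Nrgn also had r = 0.677 with the excitatory neuron score (adjusted permutation p = 0.218), though -0.867 within control libraries. With the striatal, microglia, and mural and meningeal scores r was -0.581, -0.571 and -0.561 (adjusted 0.337, 0.337 and 0.344). The part of these lists in the Nrgn values was not tested.

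**Figure D3:**
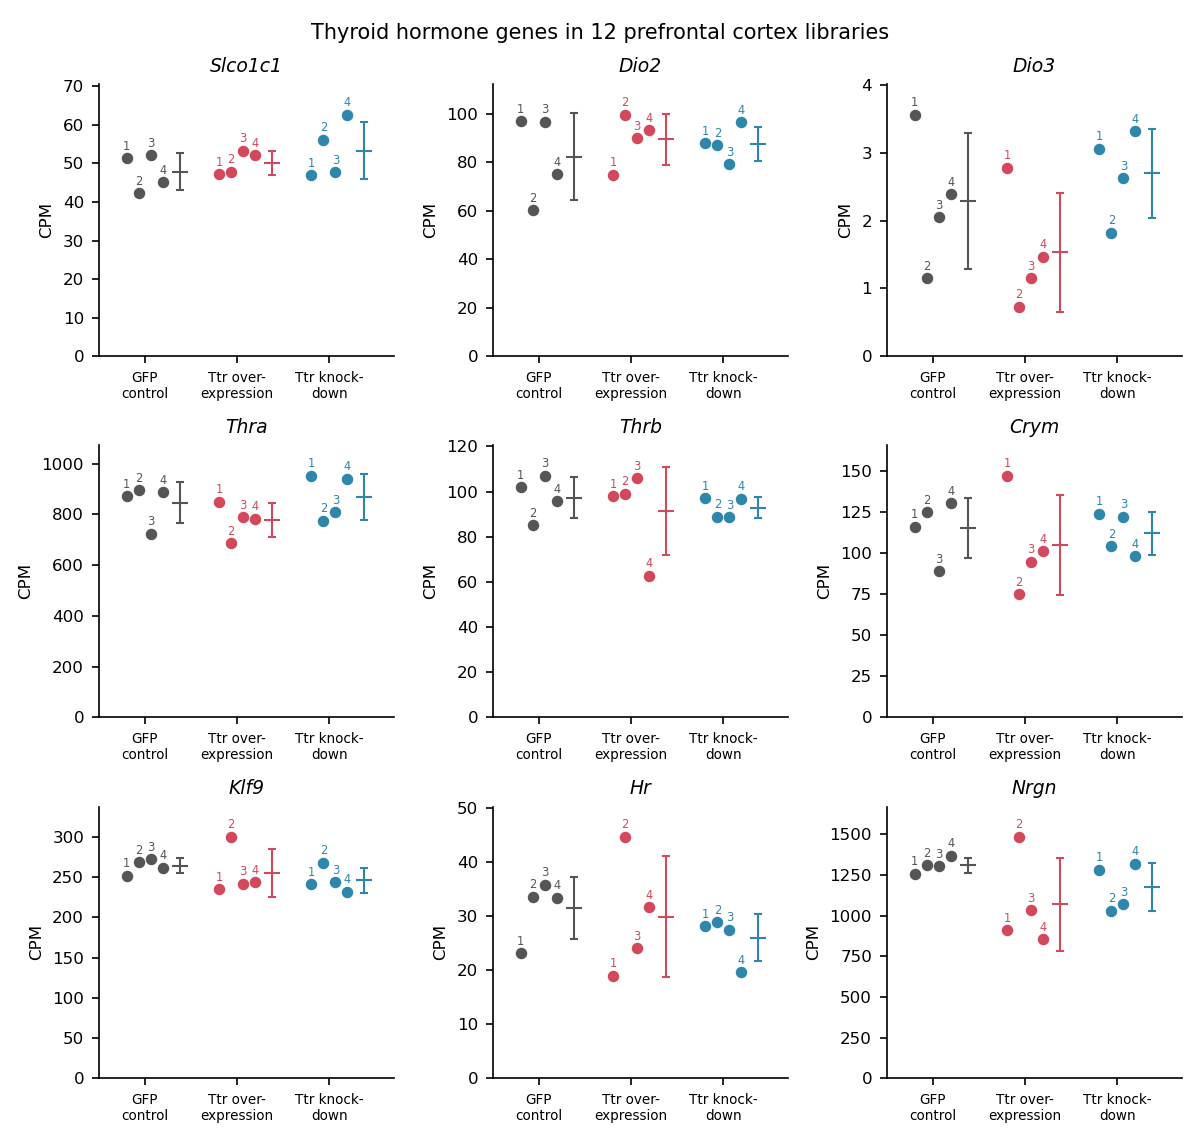
CPM of each gene by library (points, numbered by replicate) in the GFP control, Ttr overexpression and Ttr knockdown groups, with the mean and SD of 4 libraries as a bar beside each group and axes from 0. The groups overlap for every gene, and overexpression replicate 2 is the highest library for Dio2, Klf9, Hr and Nrgn and the lowest for Dio3, Thra and Crym.

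Several of the genes varied together from library to library. Overexpression replicate 2 was the highest of the 12 libraries for Dio2, Klf9, Hr and Nrgn and the lowest for Dio3, Thra and Crym. It also had the lowest striatal (-1.639) and microglia (-0.396) scores and the highest score of glucocorticoid-induced genes (0.202). Striatal scores were also low in knockdown replicate 4 (-1.388) and control replicate 1 (-1.26), where Hr had 19.6 and 23.1 CPM and Klf9 232 and 252. Over the 12 libraries, which differ in depth and dissection, log2 CPM of Klf9 and Hr had r = 0.865 and rho = 0.853 (2-sided permutation p = 0.00017 and 0.00078 from 100000 permutations; adjusted over the 36 pairs of the set, 0.00612 and 0.0281). The r of deviations from the group means was 0.849, it was 0.925, 0.89 and 0.726 within control, overexpression and knockdown libraries, and it was 0.741 without the 2 libraries farthest from the Klf9 median. Of the 36 pairs, 1 had an r with an adjusted p under 0.05, and 8 had an unadjusted p under 0.05. Dio2 and Crym had r = -0.702 and rho = -0.825 (permutation p = 0.0098 and 0.0016, adjusted 0.113 and 0.0288), and r was -0.743 without the 2 libraries farthest from the Dio2 median. Dio3 ran against Hr (r = -0.663, rho = -0.657, permutation p = 0.019 and 0.024, adjusted 0.113 and 0.216), with r = -0.678 without the 2 farthest libraries.

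Scores of cell type markers, the mean centred log2 CPM of each list, moved with some of the same genes. Of 99 pairs of a gene and a list score, 2 had an r whose permutation p, adjusted over the 99, was under 0.05. Slco1c1 went with the endothelial score (r = 0.824, rho = 0.783, permutation p = 0.00074 and 0.0037, adjusted 0.0366 and 0.264), and r was 0.804, 0.968 and 0.941 within control, overexpression and knockdown libraries and 0.744 without the 2 farthest libraries. Nrgn went against the choroid plexus score (r = -0.844, rho = -0.713, permutation p = 0.00049 and 0.012, adjusted 0.0366 and 0.264; r = -0.762 without the 2 farthest), a score that rests on markers summing to at most 13.8 CPM. Dio2 went against the oligodendrocyte score (r = -0.80, rho = -0.713, permutation p = 0.0018 and 0.012, adjusted 0.0594 and 0.264), with r = -0.616 without control replicate 2 and knockdown replicate 4. For this pair r was -0.995, -0.093 and -0.896 within control, overexpression and knockdown libraries. Dio2 also went against the striatal score (r = -0.59, rho = -0.713, permutation p = 0.04 and 0.012, adjusted 0.337 and 0.264). There r was -0.746, -0.483 and -0.992 within the same groups, and -0.802 without the 2 farthest libraries. With the striatal score, Crym had r = 0.611 and Thrb r = -0.603 (permutation p = 0.035 and 0.019, adjusted 0.337 and 0.235). Thrb went with the excitatory neuron score (r = 0.876, rho = 0.671, permutation p = 0.0029 and 0.021, adjusted 0.0718 and 0.297), with r = 0.60, 0.968 and 0.806 within control, overexpression and knockdown libraries and r = 0.542 without the 2 farthest libraries, control replicate 1 and overexpression replicate 4. The pairs given here were chosen after their values were seen, and whether the make-up of the tissue accounts for them was not tested.

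**Figure D4:**
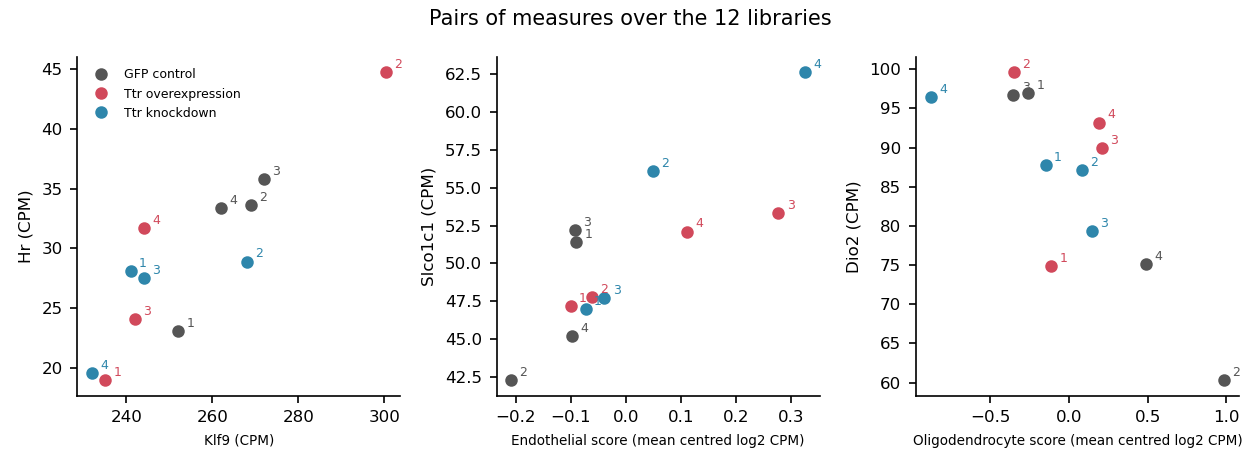
Hr against Klf9 (CPM), Slco1c1 (CPM) against the endothelial score, and Dio2 (CPM) against the oligodendrocyte score, 1 point per library, numbered by replicate and coloured by group. Hr is higher where Klf9 is higher in all 3 groups (r = 0.865 on log2 CPM), with overexpression replicate 2 at the top of both, and control replicate 2 is at the low end of Slco1c1 and Dio2.

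The genes most like each member over the 12 libraries were ranked by Pearson r of log2 CPM among the 18289 genes tested. Hr was followed by Syt2, a calcium sensor of fast-releasing synapses (r = 0.965), Nefh, the heavy neurofilament subunit (0.961), and Cntnap1, a protein of the axon beside nodes of Ranvier (0.95). Klf9 was followed by Plxdc1 (0.946), the potassium channel subunit Kcng4 (0.945) and the mitochondrial isocitrate dehydrogenase subunit Idh3a (0.939). Thra was followed by the zinc-finger factor Maz (0.964) and Palm (0.937), and Thrb by Pdk1 (0.953), Ldb2 (0.946) and Ift74 (0.941). Crym was followed by Dpysl5 (0.964), Usp11 (0.962) and the cadherin Cdh13 (0.95), and Nrgn by the kinase Camkk1 (0.941), Gm2004 (0.937) and Bloc1s3 (0.934). Slco1c1 was followed by the fatty acid elongase Elovl2 (0.954), Plekha4 (0.943) and Gm5165 (0.931). For the deiodinases, Dio2 was followed by Stard8 (0.885), Ildr2 (0.881) and Btbd3 (0.877), and Dio3 by Syt17 (0.926), Igbp1b (0.897) and Dtl (0.881). Igbp1b had as few as 1 count in a library, so its value carries little weight. These coefficients are the highest over all genes tested, are given with no test, and share depth and dissection across the libraries.

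Other genes of the pathway were taken from lists chosen from textbook roles, and none of them passed. Of 6 other transporters, 3 were higher and 3 lower in overexpression against control (median -0.004, 0 called, 1 at an unadjusted p under 0.05), and 5 higher and 1 lower in knockdown against control (median 0.063, 0 called, 0 unadjusted). Slco1a4, an organic anion transporter of brain vessels, had 53.7 ± 8.5 CPM with overexpression and 42.6 ± 7.04 in control libraries (log2 0.33 ± 0.14 SE, edgeR adjusted p = 0.789), and endothelial markers also had higher means there, as given above. Slc7a8, an amino acid transporter that also carries thyroid hormone, had 91.6 ± 6.65 and 99.7 ± 3.58 CPM (-0.12 ± 0.06, edgeR adjusted p = 0.8). In knockdown against control, Slco1a4 had 50.3 ± 8.2 and 42.6 ± 7.04 CPM (0.24 ± 0.14, edgeR adjusted p = 0.903). Between the 2 Ttr vectors, 1 transporter was higher and 5 were lower with overexpression (median -0.105, 0 called), with Slc7a8 at -0.14 ± 0.06 and Slc3a2 at -0.055 ± 0.049.

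The 12 receptor partners and coregulators, which set whether a receptor represses or activates, had no gene past the test. Medians were -0.031, -0.022 and -0.007 in overexpression against control, knockdown against control and overexpression against knockdown, with 5, 2 and 5 genes higher and 0 at an unadjusted p under 0.05 in each by edgeR. The genes with the smallest p-values were Rxrb (-0.075 ± 0.068) and Ncoa1 (-0.052 ± 0.047) in overexpression against control, Tbl1xr1 (-0.072 ± 0.065) and Ncoa3 (-0.080 ± 0.080) in knockdown against control, and Ncoa3 (0.12 ± 0.08) and Hdac3 (0.062 ± 0.049) in overexpression against knockdown. Of 9 genes for selenoprotein synthesis, which both deiodinases need, and for turnover of the Dio2 enzyme, 4, 2 and 6 were higher, with medians of -0.018, -0.051 and 0.044 and 0 called. Sephs2, which makes the selenium donor, had 34.6 ± 0.868 CPM with knockdown and 37.4 ± 1.39 in control libraries (-0.11 ± 0.05, edgeR adjusted p = 0.878), and the groups did not overlap, as for 4.11% of all genes. Pstk, the kinase that acts on the selenocysteine tRNA, had 16.3 ± 0.848 and 18.2 ± 1.32 CPM (-0.16 ± 0.08, edgeR adjusted p = 0.894). Wsb1 and Usp20, which add and remove ubiquitin on the Dio2 enzyme, differed by 0.19 ± 0.13 and -0.12 ± 0.07 in overexpression against control.

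Genes known to be raised by T3 in rodent brain mostly had lower means with the knockdown vector. Of 14 such genes, all tested, 12 were lower and 2 higher in knockdown against control, with a median of -0.163 (all genes 0.0047, 51.8% above 0), and edgeR called 0 with 0 at an unadjusted p under 0.05. In overexpression against control, 9 were lower and 5 higher (median -0.047, 0 called, 1 unadjusted), and in overexpression against knockdown 13 were higher and 1 lower (median 0.128, 0 called, 0 unadjusted). Oligodendrocyte markers had 5 of 5 lower means in knockdown against control (median -0.455, 0 called) and 5 of 5 in overexpression against control (median -0.291, 0 called). In overexpression against knockdown 5 of 5 were higher (median 0.15, 0 called). The list of T3-raised genes includes the myelin gene Mbp, and the part of oligodendrocytes in the counts was not tested. Without control replicate 2 and knockdown replicate 4, the libraries at the 2 ends of the oligodendrocyte score, 9 of 14 were lower in knockdown against control and 5 of 14 in overexpression against knockdown. The number lower in overexpression against knockdown was 7 without overexpression replicate 2 and 5 without knockdown replicate 4, and the number lower in overexpression against control was 5 without overexpression replicate 1.

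Within that list, Gls2, a glutaminase, had 18.7 to 20.8 CPM with knockdown, below every control library (22.7 ± 1.28, SD, n = 4) (-0.18 ± 0.09, edgeR adjusted p = 0.897). In knockdown against control, the ranges did not overlap for 4.11% of all genes. Itga7, an integrin subunit, had 8.5 ± 2.15 CPM with knockdown and 10.7 ± 1.64 in control libraries (-0.33 ± 0.16, edgeR adjusted p = 0.894). Stard4, a sterol carrier, had 43.4 ± 6.45 CPM with overexpression and 50.0 ± 3.83 in control libraries (-0.20 ± 0.09, edgeR adjusted p = 0.792). Cbr2 had 0.89 ± 0.45 (edgeR adjusted p = 0.827) in the same comparison, from as few as 7 counts, and between the Ttr vectors Abcd2 had 0.34 ± 0.17 and Dbp 0.14 ± 0.10 (both adjusted 0.974). Of 6 genes known to be lowered by T3, 4, 4 and 1 were higher in overexpression against control, knockdown against control and overexpression against knockdown (medians 0.054, 0.073 and -0.075), with 0 called and 0 at an unadjusted p under 0.05 by edgeR. Cirbp, an RNA-binding protein induced by cold, had 60.5 ± 5.61 CPM with overexpression and 53.5 ± 4.36 with knockdown (0.18 ± 0.09, edgeR adjusted p = 0.974). Dgkg, a diacylglycerol kinase, differed by -0.13 ± 0.11 in overexpression against control.

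Of 8 immediate early genes, 8 were higher in knockdown against control, 7 of them at an unadjusted p under 0.05 by edgeR. Among them 1, Nr4a1, was called by edgeR (1.06 ± 0.13, adjusted p = 0.0242). Nr4a1 was not called with the replicate block (edgeR adjusted p = 0.103) or with limma on log2(TPM + 1) or log2(TPM + 0.1) (0.105 and 0.092, and 0.263 with no filter). Nor was it called by edgeR without any 1 of the control or knockdown libraries except knockdown replicate 4 (0.0818 to 0.193, and 0.00102 without knockdown replicate 4). In the same comparison DESeq2 called Nr4a1 (adjusted p = 1.41e-11). So did edgeR with RLE scaling factors (adjusted p = 0.0249), with no filter (0.000263) and on only the 2 groups compared (0.0285). Without control replicate 2 and knockdown replicate 4, its edgeR adjusted p was 0.00543. Egr2, not called by edgeR, stood at 2.17 ± 0.34 (adjusted p = 0.19). In overexpression against control, 8 of 8 were higher and 0 called, with Nr4a1 at 0.40 ± 0.13 and Fos at 0.96 ± 0.37 (edgeR adjusted p = 0.626 and 0.736). Of 7 clock output genes, which include Nr1d1, 0 were called in either comparison with control, and Per2 had 0.34 ± 0.14 in knockdown against control (edgeR adjusted p = 0.834) and Per3 0.16 ± 0.07 in overexpression against control (0.8).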

How the data were processed

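Gene expression was measured by poly(A) RNA sequencing in 12 libraries, 4 per group, with 19879629 to 37166146 counts each. Whole-number counts, not normalized, and TPM were deposited by the authors for each gene; per the submitters' processing notes, bcl2fastq 2.20.0.422, UMI-tools, featureCounts, DESeq2 and GRCm38 (mm10) were used, with no role given. Aligner, strand setting and use of the molecular identifiers: not given in the sources used here. The deposited TPM equalled counts over 1 length per gene in 100% of values of 13457 genes, within 0.01 on the log2 scale. Deposited variance-stabilised values were not used. Of 55401 identifiers, 55141 matched a symbol; the other 260 held 0.00474% of counts.

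Counts went into edgeR 4.0.16 (R 4.3.3; two-sided quasi-likelihood test, TMM factors of 0.979 to 1.03, default filter per group), where 1 fit of all 12 libraries held a mean for each group. Benjamini-Hochberg adjustment covered 18289 genes (threshold 0.05); the common biological coefficient of variation was 0.126. SE is the log2 fold change over the root of F, and intervals are at 95%. CPM uses TMM factors, log2 CPM a prior count of 2. List scores average centred log2 CPM over the list's genes. Libraries of a group never agreed within sampling noise (chi-square per degree of freedom 5 to 26.1). Alternatives used DESeq2 1.42.0, limma 3.58.1 on log2(TPM + 1) and log2(TPM + 0.1), other filters and scalings, a replicate block and each library left out. A fit without 1 library was read only for the comparisons that include its group. An alternative without control replicate 2 and knockdown replicate 4 was chosen after seeing the data, as were the counts of the T3-raised list under each setting.

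The genes, lists and tests were chosen with earlier results of these data known. Named were all 9 genes, Ttr, genes overlapping their exons, from each list the genes called or otherwise the 2 with the smallest unadjusted p in each comparison, and the 3 genes with the highest r to each of the 9; Dio3os, Mbp, Folr1 and Otx2 fall outside that rule. Some genes that the rule named are not reported here. Positions come from GENCODE M21 and promoters from RefSeq. Plots used matplotlib 3.10.9 in Python 3.11.15.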

Additional observations from a re-analysis of the deposited data

Results flagged for a closer look

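In 5 of 27 sets of 4 libraries (9 genes in 3 groups), the highest or lowest library stood apart: its gap to the nearest other library in log2 CPM, as a share of the range of the 4, was above the 95% critical value of Dixon's test. Chance flags about 1 set in 20. Thra was low in control replicate 3 (725 CPM, share 0.88), and Thrb was low in overexpression replicate 4 (62.8 CPM, share 0.849). Klf9 was high in overexpression replicate 2 (300.3 CPM, share 0.848). Hr was low in control replicate 1 (23.1 CPM, share 0.842) and in knockdown replicate 4 (19.6 CPM, share 0.869). On the CPM scale itself the shares were 0.871 for Thra, 0.813 for Thrb, 0.862 for Klf9, and 0.811 and 0.849 for Hr in control and knockdown libraries, so Thrb and Hr in the control group stood below the critical value there.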

How the results depend on the processing

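None of the 9 genes was called in any comparison under any of the settings run, with adjusted p-values from 0.0989 to 1. Of 459 log2 fold changes under alternatives, 437 kept their direction and 22 had the opposite one, none larger than 0.116 in size; all of these came from fits with 1 or 2 libraries left out, and the cause was not tested. With 1 library left out at a time, overexpression against control ranged from -0.0057 to 0.21 for Dio2, -0.17 to 0.042 for Thrb and -0.35 to 0.084 for Hr. Knockdown against control ranged from -0.035 to 0.18 for Dio2, -0.028 to 0.091 for Thra and -0.14 to 0.027 for Crym. Overexpression against knockdown ranged from -0.028 to 0.11 for Dio2, -0.10 to 0.12 for Thrb, -0.31 to 0.031 for Crym, -0.035 to 0.095 for Klf9 and -0.073 to 0.36 for Hr. Without control replicate 2 and knockdown replicate 4, Dio2 was -0.0053 in overexpression and -0.083 in knockdown against control, Dio3 was -0.086 and Crym 0.063 in knockdown against control, and 2 genes of all tested were called in knockdown against control.

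The count of all genes called, 1 in each comparison, moved with the tool. In overexpression against control it was 40 with DESeq2, 20 with no filter, 0 on only the 2 groups compared, 2 with limma on log2(TPM + 1) with no filter and 0 to 4 with 1 library left out. In knockdown against control it was 42 with DESeq2, 22 with no filter, 2 on only the 2 groups, 0 with limma on log2(TPM + 1), 0 with limma on log2(TPM + 0.1) and 0 to 10 with 1 library left out. In overexpression against knockdown it was 4 with DESeq2, 3 with limma on log2(TPM + 1) with no filter and 0 to 2 with 1 library left out.

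Between same-numbered libraries, the r of deviations from group means ran from -0.453 to 0.328. Libraries with different numbers were not compared in this way, so these values do not settle whether the numbers pair the samples. With the replicate block, 0 genes were called in knockdown against control and 2 in overexpression against knockdown, and 0 of the 9. Dio3 then had -0.60 in overexpression against control (edgeR unadjusted p = 0.013, adjusted 0.574). Its edgeR adjusted p in overexpression against knockdown was 0.506.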
